A study of Mus musculus with 4 samples.

Results

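The cells described here are taken to be the Sertoli cells of the Sertoli valve (SV), and are called SV Sertoli cells. The SV is the narrow end of the seminiferous tubule that opens into the rete testis (RT). The data are single-cell RNA counts of the mouse testis at P14. SV Sertoli cells were picked out by 3 genes, Wfdc18, Fabp3 and Tesc. A barcode was a member when it had 1000 to 4500 detected genes, at least 2 UMIs (unique molecular identifiers, each standing for 1 captured RNA molecule) of each of these genes, fewer than 3 UMIs of 1500015O10Rik and fewer than 5 UMIs of Col3a1. There were 155 members among 46001 barcodes, or among 22567 with 1000 to 4500 detected genes. All 155 also had at least 5 of 10 general Sertoli genes (Inha, Cst9, Cst12, Defb19, Defb36, Wfdc10, Tsx, Aard, Rhox8 and Amhr2), which the rule did not ask for, with a median of 9 in each library. The 9702 other Sertoli cells are the remaining barcodes with at least 5 of these 10 genes. The 176 RT cells were gated on 1500015O10Rik (at least 3 UMIs) and Pax8 (at least 1). Some RT cells also counted as other Sertoli cells. These were 13 of 26 in control 1, 10 of 61 in control 2, 15 of 21 in Sox17-cKO 1 and 8 of 68 in Sox17-cKO 2. Because the members were chosen by UMI counts of these same cells, differences between SV Sertoli cells and other cells are descriptions and have no p-value.

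The tissue was the testis region with the RT and the tubules next to it, from C57BL/6 mice, and each library pooled 3 pups with 5000 cells targeted. There were 2 control and 2 Sox17-cKO libraries, described as independent replicates. The sample records name the genotypes SF1Cre (control) and SF1Cre:Sox17flox/flox (Sox17-cKO), whereas the methods describe the controls as Sox17flox/flox littermates. If the records hold, both genotypes carry the Cre transgene, which is driven by Nr5a1 (SF1) sequences and therefore acts in somatic cells of the gonad, Sertoli cells included.

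Sertoli cells are the somatic cells of the seminiferous epithelium that surround and feed the germ cells. Along most of the tubule they hold dividing and differentiating germ cells. At the SV they form a plug-like end with few germ cells, known for stabilised microtubules and for AKT signalling, and the region is a candidate niche in which retinoic acid, the vitamin A derivative that drives spermatogonia into differentiation, is kept low by CYP26 enzymes. The SV abuts the epithelium of the RT, the channel network that collects sperm and in which the transcription factor SOX17 is made.

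The number of SV Sertoli cells was 32 and 29 in the control libraries (replicates 1 and 2) and 24 and 70 in the Sox17-cKO libraries, and values for 4 libraries are given in this order throughout. Their summed UMIs were 285506, 277105, 195468 and 577718, so 1 UMI was worth 3.50, 3.61, 5.12 and 1.73 CPM (counts per 1000000 UMIs), and levels of a few CPM rest on single molecules. In summed UMIs Sox17-cKO 1 was the lowest library for these cells and Sox17-cKO 2, with the most cells, the highest. The median SV Sertoli cell held 8601, 8845, 6759.5 and 8294.5 UMIs against 6125, 5228.5, 4544 and 6164 in other Sertoli cells. The median share of mitochondrial UMIs was 8.59, 8.74, 7.30 and 5.29% in SV Sertoli cells and 11.1, 10.4, 8.36 and 6.57% in other Sertoli cells. Pairs of libraries shared 20 to 43 barcodes, no barcode was an SV Sertoli cell in both libraries of a pair, and 1 SV Sertoli barcode was also found in another library. A further 279 barcodes with the UMI minimum of the 3 gate genes had more than 4500 detected genes and 5 had fewer than 1000, and are not members. The limit on 1500015O10Rik removed 1 barcode and the limit on Col3a1 removed 2.

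Igfbp3 and Adamts1, markers that the rule did not use, were higher in SV Sertoli cells. They were chosen with earlier results of these data known, so their direction is not independent evidence. Ccnd1, Fgfr1 and Cyp26a1 were known to the study from earlier work on the SV. The study also places them in or around a cluster of these samples that it proposes as the SV. With all cells kept, none was higher here in all 4 libraries. Their log2 ratios to other Sertoli cells were 0.80 ± 1.0, -0.04 ± 0.49 and 0.80 ± 0.96 (mean ± SD of the 4 libraries). That cluster was compared with other Sertoli clusters, and the 2 classes here were gated on UMIs, so the comparisons are unlike. Cells with markers of another cell type (defined below) made up 41.1, 18.2, 46.6 and 16.5% of other Sertoli cells. They made up 12.5, 10.3, 12.5 and 1.43% of SV Sertoli cells. With such cells left out of both classes, the ratios of Ccnd1, Fgfr1 and Cyp26a1 were 1.75, 0.96 and 0.38. Those of Ccnd1 and Fgfr1 thus rose and that of Cyp26a1 fell. Igfbp3, which binds insulin-like growth factors outside the cell, was at 158, 144, 271 and 140 CPM in SV Sertoli cells, and at 24.8, 24.1, 18.1 and 23.8 CPM in other Sertoli cells. Adamts1, a secreted metalloprotease, was at 200, 105, 200 and 133 CPM against 15.3, 37.6, 23.0 and 22.7 CPM. Neither gene overlapped between the 2 cell classes in any library, and the ratios were 2.68 ± 0.60 and 2.47 ± 0.85 on the log2 scale (mean ± SD of the 4 libraries). RT cells held Igfbp3 at 14, 0, 0 and 3.40 CPM but Adamts1 at 164, 133, 237 and 136 CPM. Igfbp3 thus set SV Sertoli cells apart from both neighbours, and Adamts1 only from other Sertoli cells. The position of a cell in the tubule was not measured in these counts.

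General Sertoli genes were present in SV Sertoli cells, and none of the identity list was called. Sox9, the transcription factor that sets Sertoli fate, was at 627, 429, 440 and 473 CPM in SV Sertoli cells and at 243, 230, 139 and 334 CPM in other Sertoli cells, a ratio of 1.09 ± 0.50. Wt1 had a ratio of 0.37 ± 0.29 and Gata4 of 0.62 ± 0.28. Of 11 Sertoli identity genes compared, 0 were at least 2-fold higher or lower in 4 of 4 libraries, and their median was 0.11. Their ratios ran from -1.15 to 1.09, with 3 above 0 and 1 below 0 in 4 of 4 libraries. When cells with markers of another cell type were left out of both classes, the median was -0.30 and 0 were called. Amh, the hormone of immature Sertoli cells, was at 35.0, 10.8, 5.12 and 17.3 CPM on 10, 3, 1 and 10 UMIs. In other Sertoli cells it was at 32.9, 16.4, 13.0 and 17.9 CPM.

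Markers of the RT were far below their level in RT cells. The 12 RT markers summed to 133, 39.7, 174 and 106 CPM in SV Sertoli cells, to 112, 76.9, 165 and 58.5 CPM in other Sertoli cells and to 2683, 2787, 2299 and 2844 CPM in RT cells. SV Sertoli cells were above other Sertoli cells in 3 of 4 libraries and below them in control 2. Krt19 and Rmst, which RT cells of every library held, were at 0 in SV Sertoli cells of all 4. Pax8 was at 3.50 CPM in control 1 and at 0 in the other libraries, whereas RT cells held 375, 445, 258 and 451 CPM. RT cells were chosen for Pax8, so its level there is in part set by the gate, and Pax8 is among the 12 markers summed. Interstitial markers summed to 77.1 to 202 CPM over 10 genes, peritubular myoid markers to 230 to 321 CPM over 6 genes, endothelial markers to 7.01 to 12.1 CPM over 8, macrophage markers to 10.5 to 35.8 CPM over 8 and Leydig markers to 0 to 8.65 CPM over 6. Dpt was at 0 in all 4 libraries. The 12 germ cell markers summed to 946, 1205, 1243 and 995 CPM in SV and to 3301, 1163, 3853 and 1290 CPM in other Sertoli cells, so that in control 2 SV Sertoli cells were the higher.

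**Figure D1:**
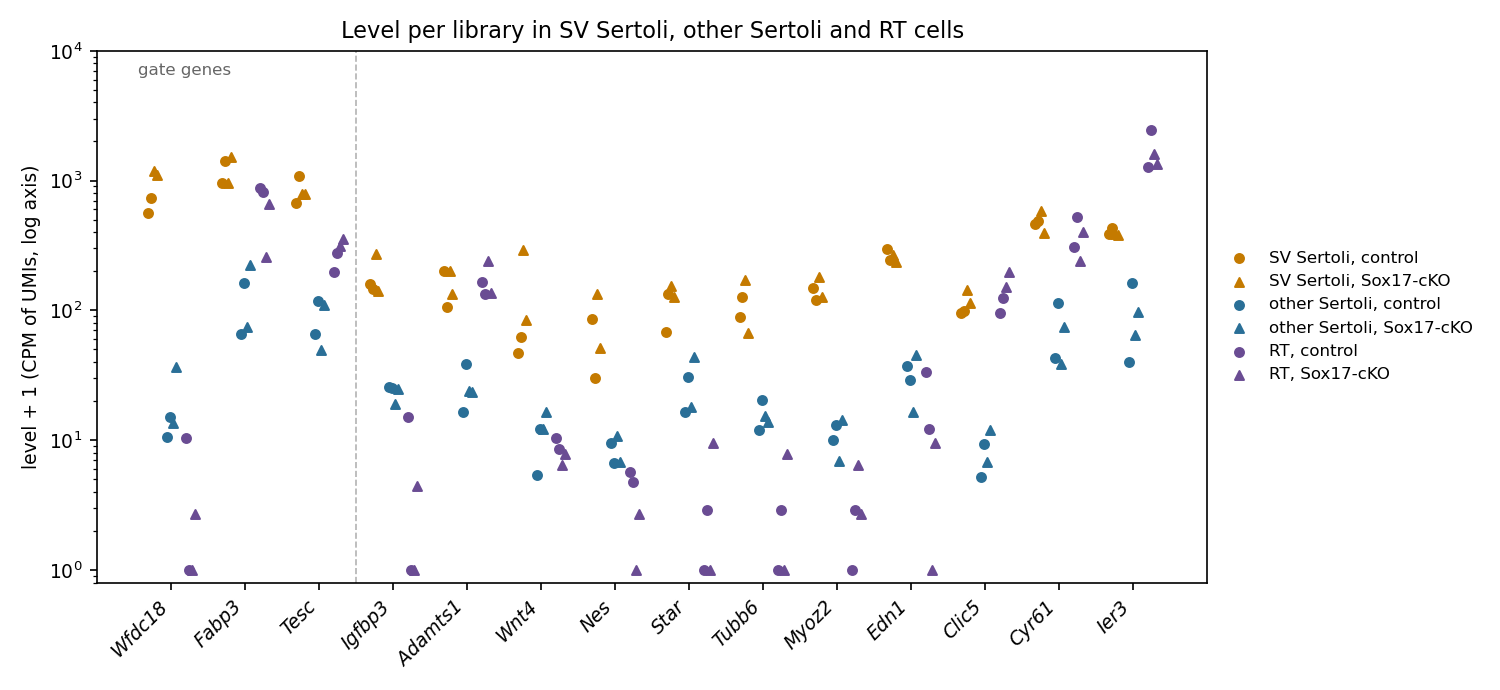
Level of 14 genes in CPM plus 1 (log axis) in each library, for SV Sertoli cells (orange), other Sertoli cells (blue) and RT cells (purple). Circles are control and triangles Sox17-cKO libraries. The 3 genes left of the dashed line chose the SV Sertoli cells. Igfbp3, Wnt4, Nes, Star, Tubb6, Myoz2 and Edn1 sit above both neighbours, whereas Adamts1, Clic5 and Cyr61 in RT cells reach the level of SV Sertoli cells.

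The genes that chose the cells are given for description. Wfdc18, a secreted protein of the whey acidic protein family, was at 557, 733, 1177 and 1103 CPM in SV Sertoli cells, and at 35.9 CPM or less in other Sertoli cells. RT cells held Wfdc18 at 9.36, 0, 0 and 1.70 CPM. Fabp3, which carries fatty acids in the cytoplasm, and Tesc, a calcium-binding protein, were less exclusive. In RT cells Fabp3 was at 871, 810, 258 and 664 CPM and Tesc at 197, 276, 312 and 354 CPM, so that of the 3 genes Wfdc18 alone was nearly absent from the RT. At the edge of the rule, 155 cells had 1 UMI of the lowest of the 3 genes, 64 had 2 and 91 had 3 or more. From just outside to inside, Igfbp3 was at 44.6, 122 and 191 CPM, Adamts1 at 31.9, 137 and 160 CPM, and Wnt4 at 29.5, 73.3 and 119 CPM, while the Sertoli gene Inha was at 1301, 1161 and 1006 CPM.

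Of 6624 genes with a mean of at least 20 CPM over the 2 class means, 108 (1.63%) were at least 2-fold higher in SV than in other Sertoli cells in 4 of 4 libraries. They include the 3 gate genes and Defb36, which served to choose the Sertoli cells, and the other 104 are described below. Ratios were taken within each library on CPM plus 5, and the median over all 6624 genes was -0.09. The groups that follow are the gene lists, ordered by what the genes do, and a share of list members near 1.63% is the share among all genes.

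The gene furthest above other Sertoli cells beyond those of the rule was Myoz2, better known as a sarcomere protein that binds the phosphatase calcineurin. It was at 147, 119, 179 and 125 CPM in SV Sertoli cells and at 8.98, 12, 5.89 and 13.2 CPM in other Sertoli cells. No library of the one class came near the other, and the ratio was 3.31 ± 0.59. Clic5, a chloride intracellular channel protein of actin-rich cell surfaces, was at 94.6, 97.4, 143 and 113 CPM against 4.16, 8.37, 5.74 and 11 CPM. Hrk, an activator of cell death of the BH3-only class, had a ratio of 3.23 ± 0.48, Insc, an adaptor that orients the mitotic spindle, of 2.91 ± 0.63, and Clca3a2, a regulator of chloride currents whose counts are uncertain because of close paralogs, of 2.70 ± 0.69. Tnfrsf12a, the receptor for the cytokine TWEAK, varied most between libraries among these, at 382, 206, 527 and 189 CPM with a ratio of 2.73 ± 1.2.

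Secreted signals were represented by 3 of 13 ligands compared. Wnt4, a ligand of the Wnt family, was at 45.5, 61.3, 292 and 83.1 CPM in SV Sertoli cells and at 4.42, 11.1, 11.2 and 15.4 CPM in other Sertoli cells. Sox17-cKO 1 stood far above the other 3 libraries, and even the lowest library of SV Sertoli cells was above every library of other Sertoli cells. The ratio was 2.69 ± 1.01. Pdgfa, a growth factor for mesenchymal cells, was at 186, 54.1, 138 and 88.3 CPM and its ratio was 2.14 ± 0.32. Cyr61 (also called Ccn1), a matrix-bound signalling protein, was at 459, 491, 578 and 395 CPM with a ratio of 2.87 ± 0.80. Igf1 was the ligand that was lower, and stands with the interstitial genes below. Edn1, the precursor of the vasoconstrictor endothelin, was on no list, and was at 294, 242, 266 and 234 CPM against 36.0, 28.0, 15.4 and 44.0 CPM, a ratio of 2.95 ± 0.59. None of 10 growth factor receptors compared was called higher, and 1, Pdgfra, was called lower, a call lost without cells with markers of another type (ratio of 0.00162).

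Rdh10, which turns retinol into retinal, was at 112, 101, 87.0 and 119 CPM in SV Sertoli cells and at 23.3, 23.7, 20.6 and 31.5 CPM in other Sertoli cells, and its ratio of 1.89 ± 0.12 was among the most even of all. Aldh1a1 and Aldh1a2, which make retinoic acid from retinal, had ratios of -0.05 ± 0.49 and 0.65 ± 0.41 (named after their values were seen). Cyp26a1, which degrades retinoic acid, was at 3.50, 75.8, 15.3 and 48.5 CPM in SV Sertoli cells and at 6.68, 18.6, 8.06 and 17.9 CPM in other Sertoli cells. It was below other Sertoli cells in control 1 and above them in the other 3 libraries, with a ratio of 0.80 ± 0.96, so it was not called. Cyp26b1, the second enzyme of that kind, rested on 3 UMIs in all SV Sertoli cells and had a ratio of -3.16 ± 0.44, which was -0.53 without cells with markers of another type in both classes. Of 13 retinoic acid genes compared, 2 were higher (Rdh10 among them), 3 were lower (Cyp26b1, Rbp4 and Nr2f2) and the median was -0.05. Without cells with markers of another type 3 of the 25 genes listed were higher and 0 lower. Rbp4 then went from -2.01 to -1.07 and Nr2f2 from -3.52 to -1.29.

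Tubb6, a beta-tubulin, was at 87.6, 126, 169 and 65.8 CPM against 11, 19.2, 14.2 and 12.9 CPM, a ratio of 2.53 ± 0.49, and it was the 1 gene called of 12 tubulin and microtubule genes, whose median was 0.46. Tppp3, a tubulin polymerisation factor on none of the lists, had a ratio of 2.84 ± 0.58. Among 18 actin and intermediate filament genes, Tagln2, an actin cross-linker, was at 140, 300, 286 and 370 CPM with a ratio of 2.54 ± 0.44, and Nes, an intermediate filament protein of progenitor cells, was at 84.1, 28.9, 133 and 50.2 CPM against 8.54, 5.62, 9.70 and 5.74 CPM, a ratio of 2.5 ± 0.65. Acta2 and Tpm2 of the same list were called lower, at -2.02 and -3.52. Without cells with markers of another type 6 of the 26 genes listed were higher and 0 lower. The median of the 18 was then 0.87, and Acta2 and Tpm2 were at -0.54 and -1.55. That screen did not use the peritubular myoid markers, of which Acta2 is one. Of 16 tight and adherens junction genes 0 were called, 9 had ratios above 0 in 4 of 4 libraries (18.6% of all 6624 genes did) and the median was 0.46. Without cells with markers of another type 1 of the 27 genes listed was called lower, and the median of the 16 was 0.15. Cdh2 (N-cadherin) had a ratio of 1.0 ± 0.25, Cldn11, the tight junction protein of Sertoli cells, of 0.99 ± 0.47 and Gja1 (connexin 43) of -0.97 ± 0.23, the 3 being named after their values were seen.

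Immediate early genes, which cells switch on within minutes of a stimulus, were in part higher. Of 20 compared, 5 were at least 2-fold higher in 4 of 4 libraries, 0 were lower, and the median was 0.96. Without cells with markers of another type 13 of the 22 genes listed were higher, and the median of the 20 was 1.64. Over all genes 144 were higher in that setting, against 108 with all cells. Atf3, a stress-induced transcription factor, was at 424, 224, 379 and 495 CPM against 40.4, 68.5, 27.1 and 59.7 CPM, a ratio of 2.85 ± 0.85. Ier3 had a ratio of 2.25 ± 0.76, Dusp5, a phosphatase that ends ERK signals, of 2.00 ± 0.32, and Klf6 of 1.51 ± 0.51. In RT cells Dusp5, Klf6 and Ier3 were higher in every library, with Ier3 at 1278, 2436, 1599 and 1345 CPM where SV Sertoli cells held 389, 429, 384 and 379 CPM. Fos was uneven from cell to cell, with a UMI in 109 of 155 SV Sertoli cells, a median of 6 UMIs and 75 in the highest cell. The mitochondrial share given above was lower in SV than in other Sertoli cells in every library, and its part in these levels was not tested.

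**Figure D2:**
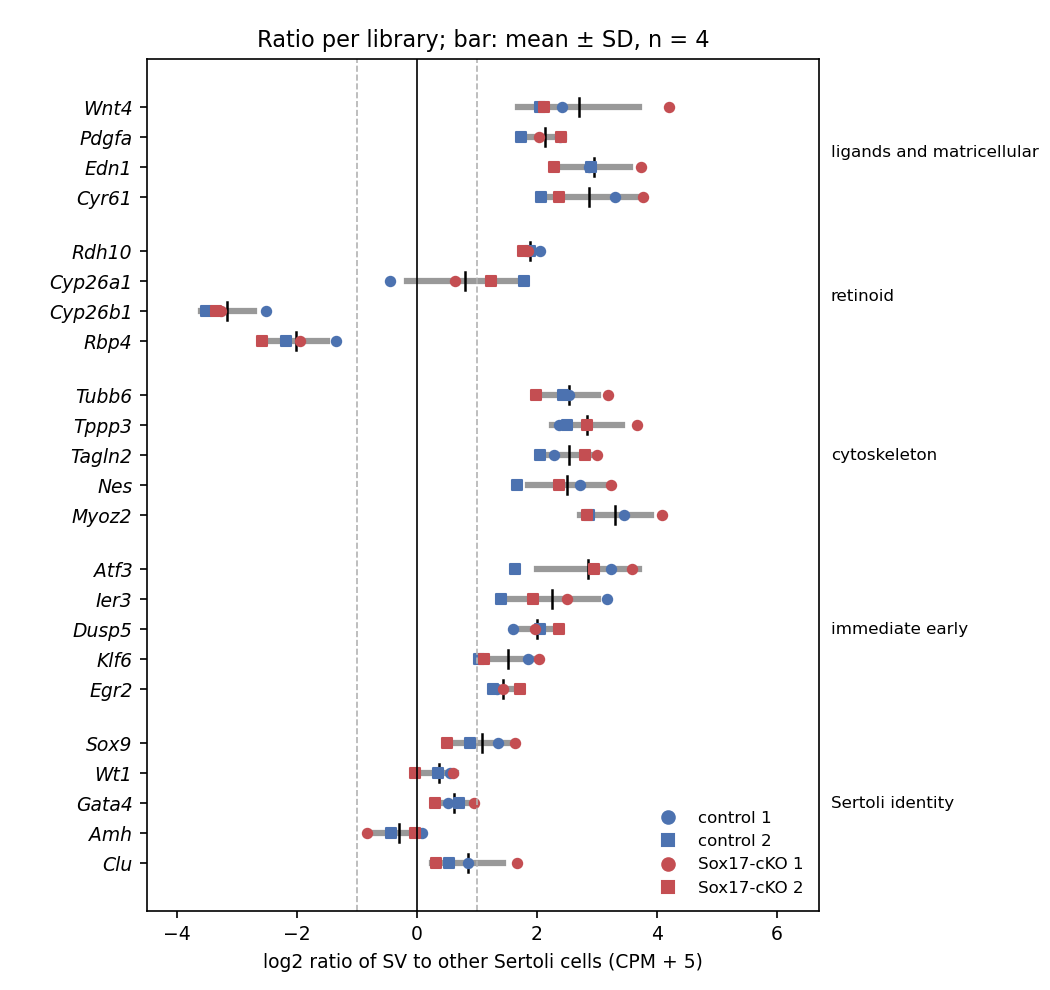
Log2 ratio of SV to other Sertoli cells for 23 genes (rows, by group), on CPM plus 5. Points are libraries (blue control, red Sox17-cKO; circles replicate 1, squares replicate 2), grey bars the mean ± SD of 4 libraries and dashed lines a 2-fold difference. Cyp26a1 spans 0, Rdh10 is nearly the same in the 4 libraries, and most Sertoli identity genes lie between the dashed lines.

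Among the other lists, Ctsh, the lysosomal protease cathepsin H, was at 154, 130, 169 and 151 CPM against 11.3, 21.5, 13.7 and 18.4 CPM, with a ratio of 2.90 ± 0.44. Timp1, an inhibitor of matrix metalloproteases, had a ratio of 2.26 ± 1.02, and these 2 were the genes called higher among 15 proteases and inhibitors. Adamts5 and Serping1 of that list were lower, at -3.68 and -2.97. Also lower were 4 of 9 insulin-like growth factor genes (Igf1, Igfbp2, Igfbp4 and Igfbp7) and 2 of 12 basement membrane genes (Col4a3 and Col4a4), with 0 higher in either list. Without cells with markers of another type 0 genes of these 3 lists were lower. Star, which moves cholesterol into mitochondria for steroid synthesis, was at 66.5, 134, 153 and 126 CPM against 15.6, 29.6, 17.1 and 42.9 CPM, and was the 1 gene called higher of 16 fatty acid and lipid genes, with a ratio of 2.02 ± 0.59. Phlda1 was the 1 of 14 PI3K and AKT pathway genes, with a ratio of 2.47 ± 0.82, while the median of that list was -0.19. Of 15 glycolysis genes 0 were called and the median was 0.26, or -0.04 without cells with markers of another type. Of 8 Wnt feedback and target genes compared 0 were called, and 2 of the 22 listed were higher without cells with markers of another type. Of 23 cell cycle genes 1 (Cdkn2a) was called lower, 13 had ratios below 0 in 4 of 4 libraries (23.2% of all 6624 genes did) and the median was -0.83. Without cells with markers of another type 0 were lower and the median was -0.47.

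The study names 16 further genes for SV Sertoli cells, some taken from earlier work (Ccnd1, Fgfr1 and Cyp26a1 among them) and others chosen on these same samples, for which the direction is not independent evidence. Of the 15 with enough UMIs, 8 (Wnt4, Lbh, Nes, Star, Tubb6, Clic5, Rrad and Cyr61) were at least 2-fold higher in 4 of 4 libraries and the median was 2.02. Without cells with markers of another type 12 of the 16 were higher, and the median of the 15 was 2.45. Lbh, a transcriptional cofactor, was at 172, 170, 159 and 158 CPM in the 4 libraries. Tgfb2, a ligand of the TGF-beta family, had a ratio of 1.79 ± 0.93 but fell short of 2-fold in control 2, where SV Sertoli cells held 90.2 CPM and other Sertoli cells 48.2 CPM. Myc had a ratio of 1.72 ± 1.32, Rtn1 of 2.14 ± 1.13, and Ccnd1, a cyclin of the G1 phase, of 0.80 ± 1.0. Fgfr1 and Hspg2 had ratios of -0.04 ± 0.49 and -0.84 ± 1.31 on 43 and 24 UMIs in all SV Sertoli cells. With cells with markers of another type left out of both classes these 2 ratios were 0.96 and 0.83, so for Hspg2 the direction turned with the cells taken.

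In the other direction, 105 genes (1.59%) were at least 2-fold lower in SV than in other Sertoli cells in 4 of 4 libraries, and these were led by genes of the interstitium. Col1a2, a chain of type I collagen, was at 10.5, 28.9, 5.12 and 39.8 CPM in SV and at 517, 1493, 1007 and 827 CPM in other Sertoli cells. Col1a1, Eln (elastin), Col6a1, Col6a2, Igfbp7, Igf1, Bgn and Apoe were the other 8 of the 10 lowest genes besides Col3a1, which the rule itself limits, with ratios between -5.09 and -3.94. Germ cell genes were also among the 105, with Ddx4, Dazl, Sycp1 and Stra8 between -2.19 and -1.83. At least 50% of the markers of another cell type were detected in 41.1, 18.2, 46.6 and 16.5% of other Sertoli cells and in 12.5, 10.3, 12.5 and 1.43% of SV Sertoli cells. This screen used the RT, germ, interstitial, Leydig, macrophage and endothelial lists but not the peritubular myoid list. Without all such cells of both classes 38 genes were called lower, 5 of them among the 105, and Col1a2 had a ratio of -1.32. Under the Col3a1 and 1500015O10Rik limits in both classes 68 were lower, 52 of them among the 105. Only 4 of the 105 were called lower under all of 3 stricter choices (the same limits for other Sertoli cells, no cells with markers of another type in either class, or other Sertoli cells with at least 8 of 10 Sertoli genes). They are Igsf8, Tmem52, Gm9112 and Gm15543, named after their values were seen, and Gm15543 is annotated as antisense. Igsf8, a tetraspanin-binding membrane protein, was at 7.01, 7.22, 0 and 8.65 CPM against 28.1, 47.9, 45.8 and 53.3 CPM, a ratio of -2.25 ± 0.79. Of the 108 genes higher in SV Sertoli cells, 82 were higher under all 3 choices.

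RT cells are the cells next to the SV, and setting SV Sertoli cells beside them split the higher genes. The RT class was mixed in replicate 1, where 13 of 26 (control) and 15 of 21 (Sox17-cKO) RT cells also counted as other Sertoli cells. Of 6842 genes compared, 416 (6.08%) were at least 2-fold higher and 515 (7.53%) at least 2-fold lower in SV Sertoli than in RT cells in 4 of 4 libraries. Of the 108 genes higher than in other Sertoli cells, 48 were also called higher than in RT cells, 2 (Ier3 and Zmiz1) were called lower and 58 neither. Wnt4 was at 9.36, 7.52, 5.38 and 6.81 CPM in RT cells, and Insc had no UMI in RT cells. Tubb6, Nes, Star, Myoz2 and Edn1 were likewise called higher than in RT cells. By contrast, RT cells held Clic5 at 93.6, 124, 151 and 197 CPM, Cyr61 at 309, 524, 237 and 402 CPM and Tagln2 at 140, 304, 231 and 425 CPM, all overlapping SV Sertoli cells. Tgfb2 was far higher in RT cells, at 2186, 2375, 926 and 1736 CPM, and the ratio of SV Sertoli to RT cells was -3.98 on the log2 scale.

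Within the SV Sertoli cells these genes were not found in every cell. To compare cells of different depth, each was thinned to 2000 UMIs, which left out 2 SV Sertoli cells, both of Sox17-cKO 2. At this depth Igfbp3 was found in 31.2, 17.2, 37.5 and 17.6% of SV Sertoli cells (unthinned 37.5, 51.7, 62.5 and 41.4%) and in 2.22 to 3.45% of other Sertoli cells. In germ cells, which served as background, Igfbp3 was found in 0.656 to 2.5%. Adamts1 was found in 28.1, 24.1, 20.8 and 16.2% of SV Sertoli cells and in 0.738 to 1.64% of germ cells. Wnt4 was found in 3.12% (1 of 32 cells, exact 95% interval 0.0791 to 16.2%), 3.45% (1 of 29), 37.5% (9 of 24) and 14.7% (10 of 68). Its background in germ cells was 0.410 to 1.40%, and in the 2 control libraries the interval of SV Sertoli cells reached below it, so that Wnt4 at this depth was not distinguishable from background there. Without thinning Wnt4 was found in 15.6, 27.6, 66.7 and 27.1% of SV Sertoli cells and in 1.36 to 3.03% of germ cells. Cyp26a1 was found in 0, 17.2, 0 and 13.2% of thinned SV Sertoli cells, and in control 1 in 1 of 32 cells even without thinning. Ccnd1 was found in 13.2 to 20.7% of SV Sertoli cells, in 3.70 to 11.1% of other Sertoli cells and in 24.1 to 30.7% of germ cells, which are therefore no background for this gene. Intervals cover counting error only.

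**Figure D3:**
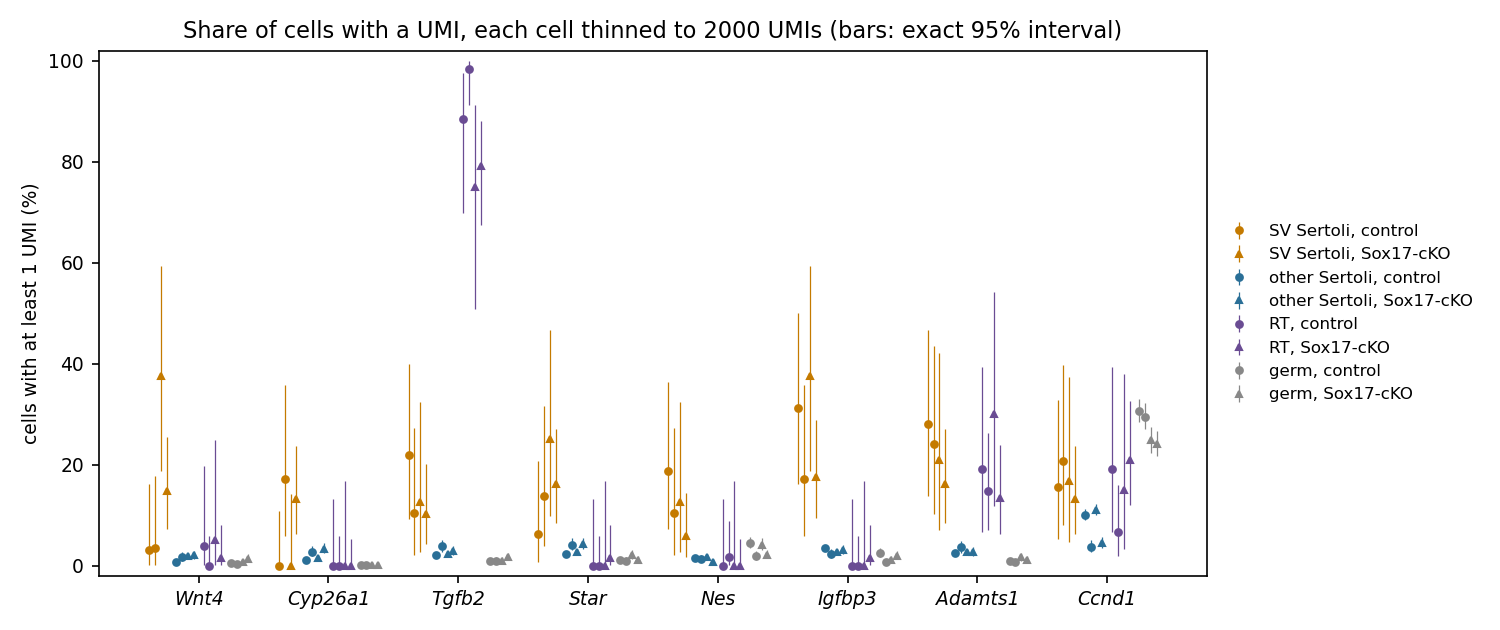
Percentage of cells with at least 1 UMI of 8 genes after each cell was thinned to 2000 UMIs, by library, in SV Sertoli (orange), other Sertoli (blue), RT (purple) and germ cells (grey). Circles are control and triangles Sox17-cKO libraries, and bars are exact 95% binomial intervals. Tgfb2 was found in 75 to 98.4% of RT cells against 10.3 to 21.9% of SV Sertoli cells. Germ cells give the background for all but Ccnd1 and Nes, which more germ than other Sertoli cells held in every library.

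Pairs of genes were counted in the same cells, with no test. Adamts1 and Nes met in 29 cells, with 31 holding Adamts1 alone and 7 Nes alone. Igfbp3 and Adamts1 met in 46 cells, with 25 holding Igfbp3 alone, 14 Adamts1 alone and 70 neither. Wnt4 and Cyp26a1 met in 9 of 155 cells, with 39 holding Wnt4 alone, 24 Cyp26a1 alone and 83 neither. In the control libraries they met in 0 of 32 and 0 of 29 cells, and in the Sox17-cKO libraries in 3 of 24 and 6 of 70. Wnt4 was held by 5, 8, 16 and 19 cells of the 4 libraries and Cyp26a1 by 1, 10, 3 and 19, which limits how often they can meet. The counts are unthinned, and cells with more UMIs are more likely to hold any pair. A single cell gave 46.2% of the Wnt4 UMIs of control 1 and 41.2% of those of control 2, but 19.3 and 12.5% of those of the Sox17-cKO libraries.

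As these genes stood high together, their promoters were searched for 4 short motifs on both strands, in RefSeq windows that run from 250 bases before to 50 bases after each start (GRCm38.p6). Of the 104 genes, 73 had a promoter. The AP-1 letters TGANTCA were in 8 of the 73 (11%) and in 8.97% of 27025 genes with a promoter. These 27025 genes were not limited to the 6624 compared, from which the 73 come, so the 2 sets are unlike. CRE letters (TGACGTCA) were in 4 (5.48% against 2.03%), NFAT letters (TGGAAAA) in 4 (5.48% against 7.70%) and TCF/LEF letters (CTTTGAT) in 0 (against 4.29%). The 250 bases before the start are printed for Wfdc18, one of the genes that chose the cells (chr11:83708754-83709003, plus strand, no match), and for Rcan1, the only gene with 3 motifs (chr16:92400079-92400328, minus strand, the downstream of its 2 starts). Capitals mark the matches, which for Rcan1 are NFAT, CRE and AP-1 from left to right.
Wfdc18: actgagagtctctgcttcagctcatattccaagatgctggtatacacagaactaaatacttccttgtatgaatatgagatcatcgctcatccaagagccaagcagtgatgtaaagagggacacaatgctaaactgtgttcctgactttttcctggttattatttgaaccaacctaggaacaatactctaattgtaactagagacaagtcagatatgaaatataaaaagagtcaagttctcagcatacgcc
Rcan1: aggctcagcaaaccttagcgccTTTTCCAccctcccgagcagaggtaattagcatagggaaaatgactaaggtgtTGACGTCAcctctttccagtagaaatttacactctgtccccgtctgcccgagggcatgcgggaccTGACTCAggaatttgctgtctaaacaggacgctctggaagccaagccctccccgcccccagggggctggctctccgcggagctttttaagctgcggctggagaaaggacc
Rcan1, an inhibitor of calcineurin, was at 144, 195, 205 and 220 CPM in SV Sertoli cells and at 26.5, 52.1, 25.5 and 48.2 CPM in other Sertoli cells. It was named for its motifs and not for its level. A match shows only that these letters are there.

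SV Sertoli cells were then compared between genotypes, the question being whether deletion of Sox17, which the RT makes, alters them. Sox17 itself was nearly absent from SV Sertoli cells, with 1 UMI in control 2 and 0 in the other 3 libraries, and in RT cells it was at 398 and 327 CPM in control and 43.1 and 28.9 CPM in Sox17-cKO libraries. SV Sertoli cells made up 0.946% (exact 95% interval 0.648 to 1.33) and 2.41% (1.62 to 3.44) of Sertoli cells in control and 0.671% (0.430 to 0.996) and 4.13% (3.24 to 5.20) in Sox17-cKO libraries. One Sox17-cKO library was below both controls and the other above both. Replicate 1 of both genotypes was counted with one version of Cell Ranger and replicate 2 with another, and the Sox17-cKO library was the lower within the first pair and the higher within the second. The means were 1.68 and 2.40%, and an exact two-sided permutation test over the 4 libraries gave p = 1 (the smallest it can give is 0.3333). The gate genes set this share, and leaving out Sox17-cKO 2 turned the difference from 0.724 to -1.01 percentage points.

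Between genotypes, edgeR's quasi-likelihood test on UMIs summed per library found 0 of 4858 genes (0%) with an adjusted p under 0.05. There were 79 at an unadjusted p under 0.05, 0 calls with DESeq2 (12 at an unadjusted p under 0.05) and 0 with the replicate number as a block. Wnt4 was at 45.5 and 61.3 CPM in control and 292 and 83.1 CPM in Sox17-cKO libraries, with no overlap. The log2 change was 1.63 ± 0.56 (SE), with an unadjusted p of 0.0127 and an adjusted p of 0.9997 by edgeR. Sox17-cKO 1 held most of this difference, and among fits that left out 1 library Wnt4 passed the threshold only without Sox17-cKO 2 (adjusted p of 0.00107 by edgeR), where a single Sox17-cKO library is left and is assumed to vary as the control libraries do. The background for such patterns was wide, since in 758 of the 4854 genes beyond the gate both Sox17-cKO libraries were above both controls, and in 500 both were below.

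The genes with the smallest p whose libraries did not overlap between genotypes were Kidins220, a neurotrophin receptor scaffold, Rgs17, a brake on G protein signals, and Lsm14a, an RNA-binding protein, above in Sox17-cKO. Kidins220 was at 21 and 14.4 CPM in control and 66.5 and 62.3 CPM in Sox17-cKO libraries, with a log2 change of 1.77 ± 0.51. Rgs17 had a log2 change of 1.48 ± 0.43, which turned to -0.10 with no upper limit on detected genes, and Lsm14a of 1.30 ± 0.41. Tagln, an actin-binding protein of smooth muscle, was below, at 147 and 75.8 CPM in control and 51.2 and 29.4 CPM in Sox17-cKO libraries, as were Erh with -1.0 ± 0.34 and Eci1, an enzyme of fatty acid breakdown, with -1.29 ± 0.44. The adjusted p of each of these 6 was 0.9997 by edgeR. With at least 1 UMI of each gate gene the change of Tagln was 2.85, the opposite direction. Tagln is also a marker of peritubular myoid cells, and the other 5 markers of that list summed to 168 and 245 CPM in control and 200 and 201 CPM in Sox17-cKO libraries.

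**Figure D4:**
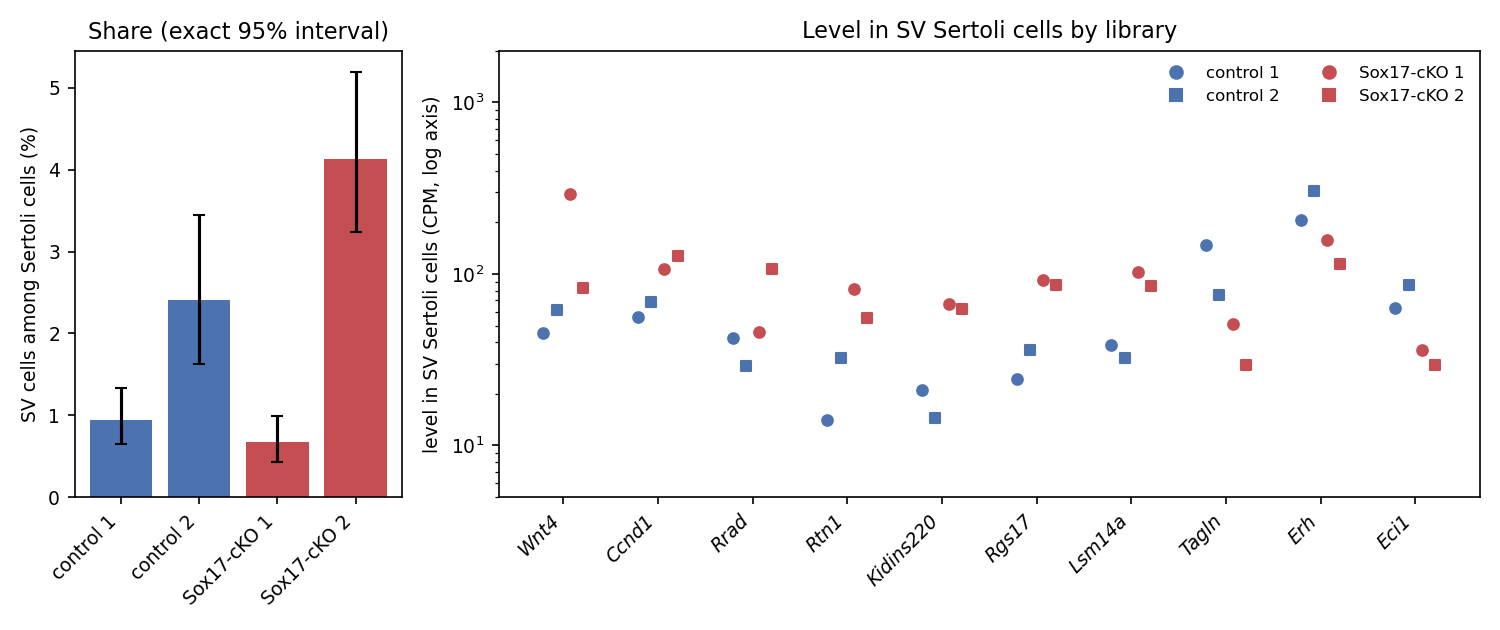
Left, share of SV Sertoli cells among Sertoli cells by library, with exact 95% intervals. Right, level in CPM (log axis) of 10 genes in SV Sertoli cells by library (blue control, red Sox17-cKO). The 2 Sox17-cKO libraries lie on both sides of the controls on the left. Of the 10 genes on the right, Kidins220, Rgs17, Lsm14a, Tagln, Erh and Eci1 were picked for no overlap between genotypes. Wnt4, Ccnd1, Rrad and Rtn1 were picked for a small unadjusted p by edgeR, so the lack of overlap is no result. Both Sox17-cKO libraries were above both controls in 15.6% of 4854 genes and below in 10.3%, and 0 of 4858 genes passed the threshold.

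Of the 14 genes named by the study that were tested, 0 passed and 4 (28.6%) had an unadjusted p under 0.05, beside 1.61% of the 4854 genes. These were Wnt4, Ccnd1 (56.0 and 68.6 CPM in control against 107 and 126 CPM in Sox17-cKO), Rrad (42.0 and 28.9 against 46.0 and 107 CPM) and Rtn1 (14 and 32.5 against 81.9 and 55.4 CPM). Their log2 changes by edgeR were 0.87 ± 0.37 for Ccnd1, 1.16 ± 0.49 for Rrad and 1.42 ± 0.53 for Rtn1, each with an adjusted p of 0.9997. Igfbp3 and Adamts1 overlapped between genotypes, with log2 changes of 0.32 ± 0.37 and 0.02 ± 0.38. Of the 101 genes beyond the gate that were higher than in other Sertoli cells and were tested, 24 (23.8%) were above in both Sox17-cKO libraries and 4 (3.96%) below, beside 15.6 and 10.3% of the 4854 genes. The median change was 0.10, beside -0.01 over the 4854 genes. In the lists of receptors, retinoic acid, junction, tubulin, basement membrane, protease, immediate early, lipid and glycolysis genes, 0 members had an unadjusted p under 0.05. Of the 7 receptors tested, 5 (71.4%) were above in both Sox17-cKO libraries and 0 below. Members with an unadjusted p under 0.05 by edgeR were 2 of 11 Sertoli identity genes (Rhox5 and Trf), 2 of 7 Wnt feedback genes (Frzb and Ccnd1), 2 of 10 cell cycle genes (Ccnd1 and Top2a), 1 of 13 ligands (Wnt4), 1 of 5 insulin-like growth factor genes (Igf2r), 1 of 11 PI3K and AKT genes (Phlda3) and 1 of 17 actin and intermediate filament genes (Tagln), and none of them passed after adjustment.

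The same test in other Sertoli cells called 0 of 14861 genes (17 at an unadjusted p under 0.05, and 1 call with DESeq2). Whether the genotype change differed between SV and other Sertoli cells was tested as an interaction with the library as a block, and 0 of 13067 genes passed by edgeR, with 182 at an unadjusted p under 0.05 and 0 calls with DESeq2. Of the genes named by the rule for genotype tests, Tagln had a difference of -1.62 ± 0.45 on the log2 scale, Tex101 of -1.49 ± 0.48 and Top2a of 1.49 ± 0.50, each with an adjusted p of 1 by edgeR. The others were Rtn1 (2.29 ± 0.82), Tnfrsf12a (1.01 ± 0.37) and Cited4 (-1.62 ± 0.59), which did not pass either. The value of Tex101 turned to 0.12 with at least 1 UMI of each gate gene and to 1.05 without cells with markers of another type. Tagln depended on the cells taken: by edgeR its difference passed below 10% mitochondrial UMIs (-2.78, adjusted p of 0.0265), without cells with markers of another type (-1.85, 0.0112) and with no upper limit on detected genes (-1.28, 0.00164), and it was 1.74 and 0.11 with at least 1 and at least 3 UMIs of each gate gene, where it did not pass. The screen for markers of another type did not use the peritubular myoid list, which holds Tagln.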

How the data were processed

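Single-cell RNA-seq was performed on 2 control and 2 Sox17-cKO libraries of P14 mouse testis. The authors aligned reads to mm10 with Cell Ranger (which uses STAR) and deposited filtered matrices of UMI counts per gene and barcode, with no further normalisation. Per the file headers, Cell Ranger was 6.0.2 for replicate 1 and 6.1.2 for replicate 2 of both genotypes, so the version cannot be told apart from the replicate number. Total UMIs in barcodes with 1000 to 4500 genes were 33649565 to 42011650 a library.

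SV Sertoli, other Sertoli, RT and germ cells (at least 5 of 12 germ markers) were gated on UMI counts, with no clustering and no doublet caller. Cells with at least 50% of the markers of another type were left out as an alternative. The types were RT, germ, interstitial, Leydig, macrophage and endothelial, and peritubular myoid markers were not screened. The mitochondrial limit of the study was not applied. UMIs were summed per library and class. Ratios are log2 of CPM plus 5 within a library, with no test, over genes with a mean of at least 20 CPM. Genotypes were compared with edgeR 4.0.16 (quasi-likelihood, Benjamini-Hochberg adjustment, R 4.3.3), with DESeq2 1.42.0 as an alternative. The edgeR tests and the ratio rule were tried on simulated data, and DESeq2 was not. P-values measure the spread between these libraries, and a library pools 3 pups. The SV share was compared by an exact permutation test.

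Named genes were the markers, the genes the study names, the 15 highest and 10 lowest ratios, and up to 4 called members a list at each end. In each genotype test without calls, up to 3 genes a direction with the smallest p were named. They had no overlap between genotypes, a condition that was not used for the interaction. Members and lists were chosen with earlier results of these data known. Promoter sequences are from RefSeq (GRCm38.p6). Alternatives were other gates, comparison cells, pseudocounts, scaling (TMM), filters, thinning, a replicate block and leaving out each library. Python 3.11.15 was used. Some genes and sequences are not reported here.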

Additional observations from a re-analysis of the deposited data

Results flagged for a closer look

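Igfbp3 stood apart in 1 library. Its log2 ratio of SV to other Sertoli cells was 3.58 in Sox17-cKO 1, and the other 3 libraries lay between 2.33 and 2.45. It was the 1 of 67 named genes examined in which 1 library lay this far from the others, and chance alone gives about 1 such gene in 20.

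Barcodes outside the range of detected genes also held the 3 gate genes. There were 279 with more than 4500 detected genes that had at least 2 UMIs of each of Wfdc18, Fabp3 and Tesc (54 and 61 in the control libraries, 27 and 137 in the Sox17-cKO libraries). Whether they are single cells was not tested. With no upper limit on detected genes in either class, 123 genes were higher and 205 lower in SV than in other Sertoli cells. The limits on 1500015O10Rik and Col3a1 were kept, which left 81, 80, 46 and 188 SV Sertoli cells. Other Sertoli cells then numbered 4772, 2018, 4895 and 2327, so both classes changed.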

How the results depend on the processing

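The count of genes higher in SV than in other Sertoli cells was 60 with at least 1 UMI of each gate gene and 62 with a pseudocount of 20 CPM, and within 1.5 times the 108 elsewhere (112 to 149 without 1 library). The count of lower genes was 57 with the 1-UMI gate, 180 below 10% mitochondrial UMIs, 38 without cells with markers of another type, 68 under the same limits, 37 against cells with at least 8 of 10 Sertoli genes, 205 with no upper limit on genes, 45 with a pseudocount of 20 CPM, 221 with no filter, and 105 to 181 without 1 library, the last being without Sox17-cKO 2. The share of calls that were higher, 50.7%, was 33.1% below 10% mitochondrial UMIs, 79.1% without marker cells, 67.5% under the same limits, 77.0% against 8 of 10 genes, 37.5% with no upper limit and 37.9% with no filter. The ratio of Pdgfra without marker cells was 0.00162.

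For genotype in SV Sertoli cells, calls were 0 to 5 without 1 library, namely 5 lower without Sox17-cKO 1 (Tmsb15b2, Cxcl1, Tex101, Gm10076 and Tagln) and 1 higher without Sox17-cKO 2 (Wnt4). The change of Tagln was 2.85 with the 1-UMI gate and that of Rgs17 -0.10 with no upper limit. In other Sertoli cells there was 1 call with DESeq2 and 1 with no filter, and 1 to 4 without 1 library. The interaction gave 10 calls with the 1-UMI gate, 1 with the 3-UMI gate, 1 below 10% mitochondrial UMIs and 1 without marker cells (Tagln in both), 7 with no upper limit (Tagln among them), and 0 to 1 without 1 library. Its value for Tagln was 1.74 and 0.11 with the 1-UMI and 3-UMI gates, and for Tex101 0.12 with the 1-UMI gate and 1.05 without marker cells. For Tnfrsf12a it was 1.01 with all libraries, -0.37 when Sox17-cKO 1 was left out and 2.42 when Sox17-cKO 2 was. The cause of these shifts was not tested. The difference in SV share ran from -1.01 to 2.46 percentage points without 1 library, with -0.00801 without control 1. With the replicate number as a block 0 genes passed in SV Sertoli cells (235 at an unadjusted p under 0.05) and 0 in other Sertoli cells. Deviations of same-numbered libraries correlated at 0.443 over 3504 genes in SV and 0.858 over 3772 in other Sertoli cells, but there are 2 pairs only and no label pairs the libraries, which share a replicate number and a Cell Ranger version. The 2 alternatives on 8 of 10 genes and on the upper limit were chosen after seeing the data. At 24 to 70 SV Sertoli cells a library, genes of a few CPM rest on single UMIs.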
